A study of Mus musculus with 6 samples.

Results

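The TALE (3 amino acid loop extension) homeobox genes described here are Meis1, Meis2, Meis3, Pknox1, Pknox2, Pbx2, Pbx3, Pbx4 and Tgif1. They were taken by symbol from the gene count table, where they are 9 of 54429 genes. They were followed in aortic endothelial cells (EC) in which Meis1 was forced, to ask which partner genes these cells already expressed and which followed Meis1. The cells were commercial primary aortic EC of adult wild-type C57BL/6 mice, grown on gelatin and transduced with a lentiviral vector. In Meis1-OE EC the vector carried Meis1 and a YFP reporter, and in YFP-CTRL EC it carried the reporter without Meis1. Both groups were sorted as YFP+CD31+VEC+ cells, replated, expanded to confluency and lysed, and 3 libraries of ribodepleted total RNA were made per group.

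TALE proteins bind DNA through a homeodomain that holds 3 extra amino acids in its first loop. MEIS proteins and the closely related PREP proteins, encoded by Pknox1 and Pknox2, bind PBX proteins through conserved domains near the amino end, and this contact helps to bring PBX to the nucleus and keep it there. PBX proteins in turn bind HOX proteins, so that MEIS, PBX and HOX can occupy DNA as a complex. TGIF proteins belong to the same superclass, recruit co-repressors and limit TGF-beta signalling, and can bind the short TGACAG site that MEIS and PREP also recognise. In blood, Meis1 is known for its role in hematopoietic stem cells and leukemia.

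The stretch of coding sequence in which Meis1 and Pknox1 were most alike is shown because reads of the vector's Meis1 could be counted for another gene only where sequences are alike. It lies in the homeobox. Each line gives the best match of a gene to 60 bases of the Meis1 coding sequence (bases 943 to 1002, counted from the start codon), and capitals mark bases that differ from Meis1.
Meis1: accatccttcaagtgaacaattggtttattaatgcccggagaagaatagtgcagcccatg
Meis3: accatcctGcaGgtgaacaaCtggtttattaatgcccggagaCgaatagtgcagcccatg
Meis2: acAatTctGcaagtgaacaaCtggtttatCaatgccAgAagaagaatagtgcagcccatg
Pknox2: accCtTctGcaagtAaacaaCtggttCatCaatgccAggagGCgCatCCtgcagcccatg
Pknox1: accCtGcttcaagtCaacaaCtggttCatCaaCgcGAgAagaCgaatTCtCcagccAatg
Tgif1: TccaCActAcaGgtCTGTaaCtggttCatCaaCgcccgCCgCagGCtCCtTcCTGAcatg
Pbx2: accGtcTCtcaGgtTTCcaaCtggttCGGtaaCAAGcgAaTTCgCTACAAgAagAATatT

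In this window Meis3 was identical to Meis1 at 56 of 60 bases, Meis2 at 53, Pknox2 at 47, Pknox1 at 45, Tgif1 at 35 and Pbx2 at 30. Over the coding transcripts in the annotation, the longest unbroken run shared with any Meis1 transcript was 32 bases for Meis2, 21 for Meis3, 15 for Pknox2, 12 for Tgif1, 11 for Pknox1 and Pbx2, and 10 for Pbx3 and Pbx4. The read length is not given in the sources used here, and transcribed vector sequence outside the Meis1 coding region was not compared.

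The genes lie apart in the mouse genome (RefSeq coordinates, GRCm38.p6). Meis1 is at chr11:18880428-19019651, Meis2 at chr2:115861264-116067537, Meis3 at chr7:16174012-16186510, Pknox1 at chr17:31564722-31607693 and Pknox2 at chr9:36890979-37147342. Pbx2 is at chr17:34592259-34597400, Pbx3 at chr2:34171457-34372045, Pbx4 at chr8:69832476-69872292 and Tgif1 at chr17:70844205-70853532. Meis1 overlaps Gm16141, which had 0 counts in every library. Meis2 overlaps G630016G05Rik, which had at most 9 counts in any library; no source used here says whether strand was used in counting.

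The libraries held 34176642 to 47956605 counts. All 10 endothelial markers were tested, and their summed level was 4612 to 6401 CPM (counts scaled to equal library size) in YFP-CTRL EC and 3660 to 4528 CPM in Meis1-OE EC. They did not move together. The edgeR fit called Cldn5, a tight junction gene, higher (log2 fold change 1.81, adjusted p = 0.0398). It called Tek, the angiopoietin receptor gene, lower (log2 fold change -0.78, adjusted p = 0.0351), where 4.14% and 2.73% of all genes tested were called higher and lower. Just over an adjusted p of 0.05, both lower, were Kdr (log2 fold change -1.23, adjusted p = 0.0504 by edgeR) and Cdh5 (log2 fold change -0.70, adjusted p = 0.0535 by edgeR). By an unadjusted p under 0.05 edgeR had 1 marker higher and 4 lower (12.8% and 13.4% over all genes). DESeq2 called 1 higher and 3 lower (6.18% and 6.13% over all genes). Of 10 macrophage markers 3 could be tested, and edgeR and DESeq2 called 0. By an unadjusted p under 0.05 edgeR had 2 higher in Meis1-OE EC and 0 lower (12.8% and 13.4% over all genes). Adgre1, C1qa, C1qb, C1qc and Tyrobp had 0 counts in all 6 libraries. The macrophage list summed to 65.1 to 140.1 CPM in YFP-CTRL EC and 69.8 to 106 CPM in Meis1-OE EC, nearly all of it Cd68. The 12 smooth muscle and fibroblast markers summed to 34.9 to 54.3 CPM in YFP-CTRL EC and 16.2 to 18.4 CPM in Meis1-OE EC. Most of that sum was Pdgfra, at 11.8 to 11.9 CPM with forced Meis1 against 33.3, 49.1 and 15.6 CPM in the controls (A, B and C), and, in control C, Acta2 at 19.9 CPM. Of the 4 members tested edgeR called Des alone, which was higher (log2 fold change 3.66, adjusted p = 0.015), as were 4.14% of all genes tested. The mean of Des was 0.451 CPM with forced Meis1. The part of these genes, and that of the endothelial markers, in the values of the TALE genes was not tested, and in bulk RNA fewer cells of a type and less RNA per cell cannot be told apart. YFP-CTRL libraries stood apart from each other in 15 proliferation genes, whose mean log2(CPM + 1) was 4.55 in library A, 5.33 in B and 6.57 in C, against 6.59 to 6.65 in the Meis1-OE libraries. Thus YFP-CTRL library C sat beside the Meis1-OE libraries on this measure, and results that rest on it are given with and without it. Over all genes tested, its Pearson's r of log2(CPM + 0.5) was 0.982 to 0.985 with the Meis1-OE libraries. The same r was 0.982 with YFP-CTRL library B and 0.966 with YFP-CTRL library A.

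Meis1 itself checks the labels. It was counted 135325, 157828 and 149221 times with forced Meis1 and 39, 58 and 85 times in the controls (libraries A, B and C in turn, as in all lists of values that follow). On the CPM scale, normalised by the trimmed mean of M values, these were 2961, 3477 and 3223 CPM against 1.148, 1.42 and 1.87 CPM. All 3 Meis1-OE libraries were above all 3 controls, and the log2 fold change was 11.07 (SE 0.26, quasi-likelihood test in edgeR, Benjamini-Hochberg adjusted p = 6.92e-06). This was the smallest p of the 16065 genes tested. The deposited counts do not separate reads of the vector from reads of the endogenous gene. In YFP-CTRL EC, which had no Meis1 vector, the 182 reads summed over 3 libraries gave an exact Poisson interval of 1.30 to 1.75 CPM (95%, counting error only). They equal 0.0411% of the Meis1 reads in the Meis1-OE libraries, and whether they came from the endogenous gene or were carried over from those libraries was not tested.

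**Figure D1:**
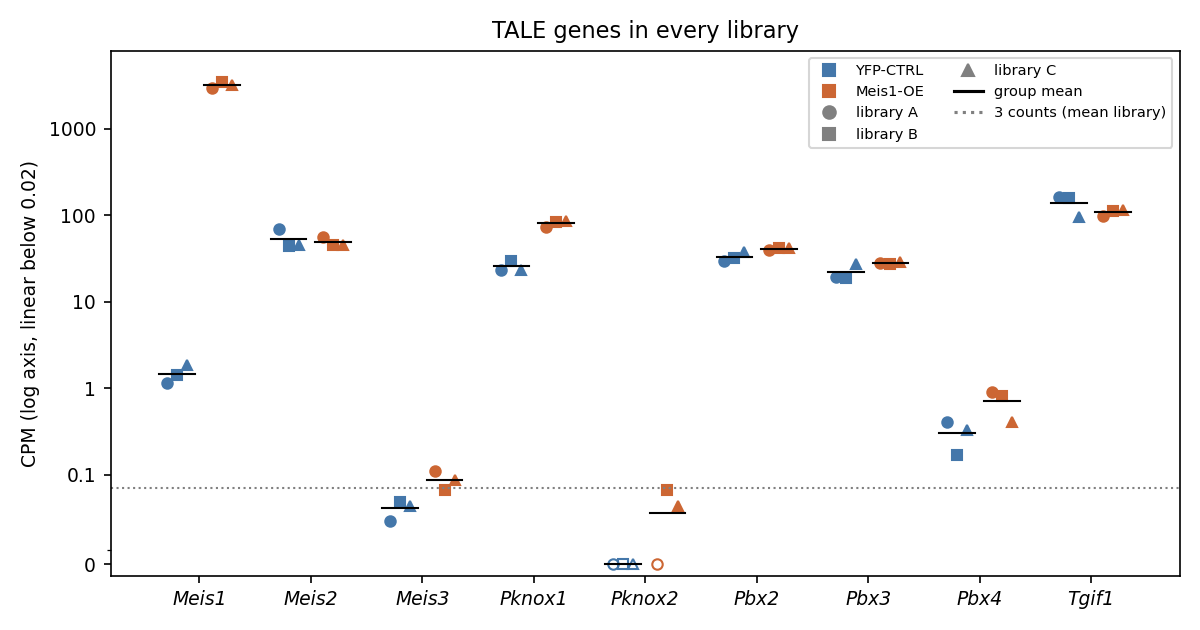
Level of each TALE gene in every library, in CPM on a log axis that is linear below 0.02. Blue points are YFP-CTRL and orange points Meis1-OE libraries, point shape gives the library letter, black lines are group means, open points are libraries at 0, and the dotted line is the level of 3 counts in an average library. Meis1 and Pknox1 stand clearly higher in Meis1-OE EC, and Meis3 and Pknox2 lie around or below the dotted line.

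To compare genes at baseline, CPM was divided by the length of each gene's exons in kilobases. In YFP-CTRL EC Tgif1 led at 41.2 ± 10.96 CPM per kb of exon (SD, n = 3), followed by Pbx2 at 9.17 ± 1.09, Pknox1 at 6.09 ± 0.88, Meis2 at 4.45 ± 1.16 and Pbx3 at 3.42 ± 0.73 CPM per kb. The libraries of Pknox1 and Meis2 overlapped, as did those of Meis2 and Pbx3, so these neighbours in the order did not differ beyond their spread. Below a gap of 17.1-fold came Meis1 at 0.2002 CPM per kb, then Pbx4 at 0.103 and Meis3 at 0.0224 CPM per kb, and Pknox2 had no count. Aortic EC of the control group therefore contained transcripts of a MEIS gene (Meis2), a PREP gene (Pknox1), the PBX genes Pbx2 and Pbx3, and Tgif1. When CPM was divided by the coding length instead, an alternative chosen after seeing the data, Meis2 moved to the second place at 36.9 CPM per kb, above Pbx2 at 25.8 and Pknox1 at 19.6 CPM per kb, and 6 of the 9 genes kept their rank. Tgif1 stayed first at 151 CPM per kb of coding sequence. Meis2 has 11872 bases of exon for 1434 bases of coding sequence in the annotation, against 3640 and 1293 bases for Pbx2.

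**Figure D2:**
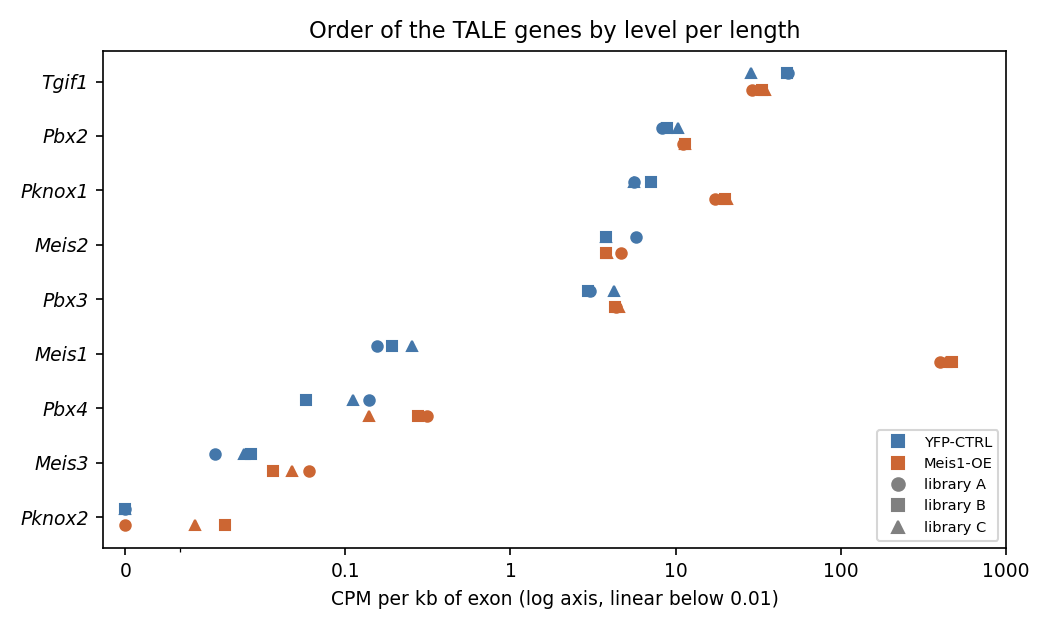
TALE genes ordered by their level in YFP-CTRL EC, in CPM per kb of exon on a log axis that is linear below 0.01. Each point is a library (blue YFP-CTRL, orange Meis1-OE), with 5 genes above 2 CPM per kb in every control library and Meis1 moving from 0.155 to 0.253 CPM per kb to 400 to 470 CPM per kb.

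Besides Meis1, Pknox1 was the only one of the 9 TALE genes that passed the threshold of an adjusted p of 0.05. By this rule 4.14% of all genes tested were higher. Pknox1 encodes the PREP protein PREP1. Its level was 73.3, 83.4 and 86.3 CPM with forced Meis1 against 23.5, 29.9 and 23.5 CPM in the controls. Every Meis1-OE library was at least 2.45 times as high as the highest control. The Meis1-OE mean was 81.0 ± 6.8 CPM and the control mean 25.7 ± 3.7 CPM (SD, n = 3 in each). The fitted change was 3.16-fold (log2 fold change 1.66, SE 0.14, adjusted p = 0.00232 by edgeR), and 37 of 16065 genes had a smaller p. It stayed past the threshold in all 13 alternatives, with log2 fold changes of 1.58 to 1.80 and adjusted p of 4.17e-16 to 0.0241.

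Pknox1 was as low in the control library with high proliferation genes as in the other controls. YFP-CTRL library C had 23.5 CPM of Pknox1 at a proliferation mean of 6.57, while Meis1-OE libraries A and B had 73.3 and 83.4 CPM at 6.59. With the proliferation mean as a covariate the log2 fold change was 1.69 (adjusted p = 0.00978 by edgeR), and leaving out YFP-CTRL library C gave 1.58. Among the controls only library C lay near the Meis1-OE libraries on this measure. The part of proliferation in the Pknox1 difference was not tested.

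The gain of Pknox1 was 55.3 CPM, equal to 1.72% of the Meis1 level in Meis1-OE EC. Its coding sequence shares no run with Meis1 longer than 11 bases, and in its most similar stretch, printed above, 45 of 60 bases were identical. Meis2, which shares runs of up to 32 bases with Meis1, differed by -4.11 CPM over the same libraries. The levels of Meis3, which is the most like Meis1 in the homeobox window, stayed at or below 0.109 CPM in every library. Whether reads of the vector entered the Pknox1 count was not tested.

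The neighbours of the TALE genes were also examined. The nearest tested gene on either side of each of the 7 tested TALE genes was looked up, and of these 14 neighbours only Cbs passed the threshold, where 6.87% of all genes tested passed in either direction, so the count is near the background. It was named after its values were seen. Cbs, which encodes cystathionine beta-synthase, an enzyme of homocysteine metabolism, lies at chr17:31612623-31637233, 4929 bases beyond the end of Pknox1, and is transcribed towards it from the opposite strand. Cbs was counted 82, 228 and 336 times with forced Meis1 and 2, 10 and 6 times in the controls. The groups did not overlap, and the log2 fold change was 4.96 (SE 0.67, adjusted p = 0.00984 by edgeR). The call was lost without Meis1-OE library B (log2 fold change 4.91, adjusted p = 0.0543 by edgeR) and with the proliferation covariate (log2 fold change 4.67, adjusted p = 0.0658 by edgeR), while the size of the difference hardly moved. Ndufv3, on the other side of Pknox1, was at 26.8 to 31.1 CPM with forced Meis1 against 26.4 to 28.4 CPM in the controls, and its log2 fold change was 0.09 (SE 0.11, adjusted p = 0.665 by edgeR). Whether reads running past the end of Pknox1 entered the Cbs count was not tested.

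Of the other MEIS genes, Meis2 did not pass the threshold and Meis3 had too few counts to be tested. Meis2, the most abundant MEIS gene at baseline, was at 55.6, 44.8 and 45.8 CPM with forced Meis1 and 68.7, 44.8 and 45.1 CPM in the controls. Apart from YFP-CTRL library A and Meis1-OE library A the levels lay within 44.8 to 45.8 CPM. The log2 fold change of Meis2 was -0.12 (SE 0.20, adjusted p = 0.749 by edgeR), and its sign turned in 3 of 13 alternatives, over a range of -0.22 to 0.22. Meis3 had 5, 3 and 4 counts in Meis1-OE EC and 1, 2 and 2 counts in YFP-CTRL EC. The groups did not overlap, but the counts are so close to the floor of 3 counts (0.0648 to 0.0883 CPM per library) that the gene was not tested, and the ratio of its summed counts, adjusted for library size, was 2.10 with an exact interval of 0.689 to 7.61 (95%, counting error only).

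Pknox2, the second PREP gene, was not detected in YFP-CTRL EC, where 0 counts over 3 libraries allow a level of up to 0.0307 CPM (exact Poisson, 95%, counting error only). It had 0, 3 and 2 counts with forced Meis1, at or under the floor, and no fold is given. Without a filter on low counts edgeR gave adjusted p = 0.545 for Meis3 and adjusted p = 0.364 for Pknox2 over 27948 genes. Whether Pknox2 shared the rise of Pknox1 cannot be told from so few counts.

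The groups differed in the makeup of the MEIS and PREP class, taken as the sum of Meis1, Meis2, Meis3, Pknox1 and Pknox2 in CPM per kb of exon. Meis1 made up 1.35% to 2.62% of the class in YFP-CTRL EC and 94.7% to 95.2% in Meis1-OE EC. At baseline the class consisted almost wholly of Pknox1 (48.3% to 64.0%) and Meis2 (34.0% to 50.2%). The class without Meis1 was at 9.41 to 11.4 CPM per kb in YFP-CTRL EC and at 22.1 to 24.4 CPM per kb in Meis1-OE EC. Pknox1 was 0.963, 1.88 and 1.47 times as high as Meis2 per kb of exon in the controls and 3.71, 5.24 and 5.30 times as high with forced Meis1. Per kb of coding sequence these ratios were 0.374 to 0.731 and 1.44 to 2.06, so which of the 2 genes led at baseline depends on the length used, while Pknox1 led in every Meis1-OE library with either length. Which transcripts the cells used, and whether the vector carried untranslated sequence, is not given in the sources used here.

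**Figure D3:**
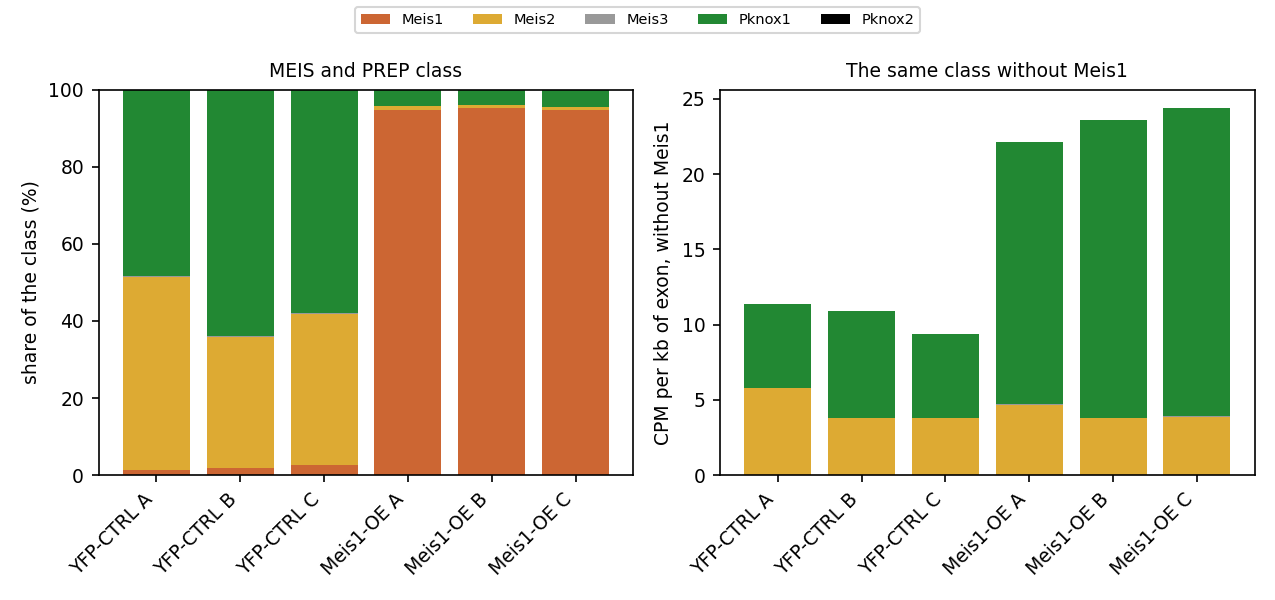
MEIS and PREP class in each library, in CPM per kb of exon. Left, share of each gene in the class in percent, with Meis1 at 94.7% or more in the Meis1-OE libraries. Right, level without Meis1, where Pknox1 (green) rises from 5.58 to 7.10 CPM per kb to 17.4 to 20.5 CPM per kb and Meis2 (yellow) stays between 3.77 and 5.79 CPM per kb.

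The PBX genes encode the main DNA-binding partners of MEIS and PREP proteins, and of the 3 measured here none passed the threshold. Pbx2 was at 40.2, 41.6 and 41.8 CPM with forced Meis1 and 29.9, 32.5 and 37.7 CPM in the controls. The groups did not overlap, as in 17.2% of all genes tested with Meis1-OE higher, but the gap to YFP-CTRL library C was small, and the log2 fold change was 0.30 (SE 0.12, adjusted p = 0.174 by edgeR). Pbx3 was at 27.9, 27.5 and 29.0 CPM with forced Meis1 and 19.5, 18.8 and 27.3 CPM in the controls. Its groups did not overlap either, with YFP-CTRL library C next to the lowest Meis1-OE library, and the log2 fold change was 0.36 (SE 0.17, adjusted p = 0.216 by edgeR). The spread of both genes among Meis1-OE libraries was small, with SDs of 0.87 CPM for Pbx2 and 0.82 CPM for Pbx3 (n = 3), against 3.97 and 4.69 CPM among the controls (n = 3).

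Pbx4, a PBX gene known mainly from testis, was far below Pbx2 per kb of exon in the controls (0.103 against 9.17 CPM per kb). It had 42, 37 and 19 counts with forced Meis1 and 14, 7 and 15 counts in the controls. On the CPM scale Meis1-OE library C, at 0.410 CPM, lay just under YFP-CTRL library A, at 0.412 CPM. The log2 fold change was 1.23 (SE 0.45, adjusted p = 0.143 by edgeR), and no alternative brought it past the threshold.

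Tgif1, the most abundant of the 9 genes at baseline, was at 98.1, 113 and 117 CPM with forced Meis1 and 161, 159 and 96.2 CPM in the controls. YFP-CTRL library C was below every Meis1-OE library, and the other controls were above them. The log2 fold change was -0.35 (SE 0.21, adjusted p = 0.326 by edgeR).

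The control library that is high in proliferation genes made the difference to whether Pbx2, Pbx3 and Tgif1 were called. Without YFP-CTRL library C, edgeR placed Pbx2 (log2 fold change 0.39, adjusted p = 0.0213), Pbx3 (log2 fold change 0.54, adjusted p = 0.00616) and Tgif1 (log2 fold change -0.56, adjusted p = 0.00577) past the threshold. That fit called 16.5% of all genes tested higher and 15.2% lower, so calls rose over all genes and not in these genes alone. With the proliferation mean as a covariate, by contrast, edgeR gave log2 fold changes of 0.12 for Pbx2 (adjusted p = 0.615), 0.09 for Pbx3 (adjusted p = 0.800) and 0.13 for Tgif1 (adjusted p = 0.749), and the sign of Tgif1 turned. Pbx3 and Tgif1 in YFP-CTRL library C lay just under the lowest Meis1-OE library, while Pknox1 in the same library was at the level of the other controls. Meis1 in that library, at 1.87 CPM, was above YFP-CTRL libraries A and B, at 1.148 and 1.42 CPM, and far below every Meis1-OE library. For Pbx2, Pbx3 and Tgif1, 3 libraries a group cannot tell apart parts that follow proliferation genes, another trait of YFP-CTRL library C, or Meis1.

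**Figure D4:**
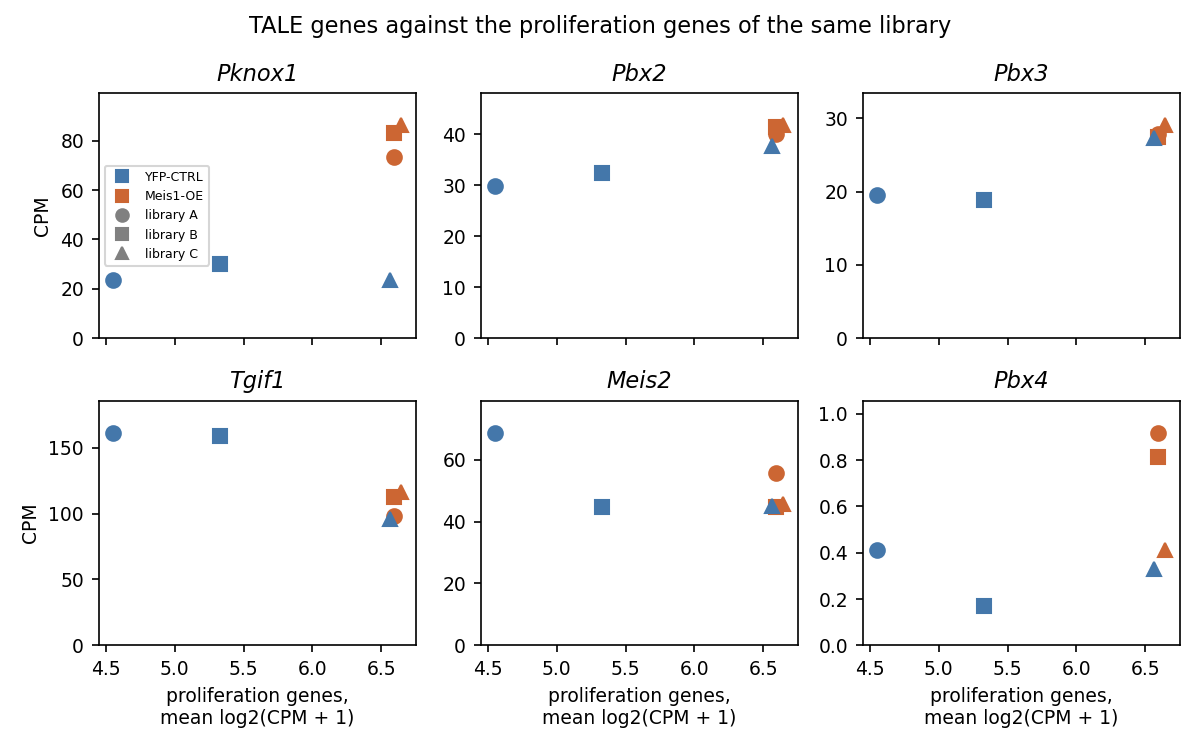
Level of 6 TALE genes in CPM (vertical axis, from 0) against the mean log2(CPM + 1) of 15 proliferation genes in the same library (horizontal axis), with blue for YFP-CTRL, orange for Meis1-OE and point shape for the library letter. YFP-CTRL library C, the blue triangle at 6.57, lies beside the orange points for Pbx3, Tgif1 and Meis2, somewhat below them for Pbx2 and far below them for Pknox1.

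Counted together, 7 of the 9 genes passed edgeR's filter on low counts. Of these, Meis1 and Pknox1 were called higher and none was called lower, where the share of all genes tested was 4.14% higher and 2.73% lower. Meis1 was raised by the vector itself and is included in every count of this paragraph. Apart from it, the fit to all libraries called only Pknox1 among the 9 genes. By an unadjusted p under 0.05 edgeR had 4 of the 7 higher and 0 lower, where 12.8% of all genes tested were higher and 13.4% lower by that rule. DESeq2 called 2 higher and 0 lower, and 6.18% of all genes higher and 6.13% lower. Meis1, Pknox1, Pbx2 and Pbx3 had groups that did not overlap with Meis1-OE higher, and none had groups that did not overlap with Meis1-OE lower, where 17.2% and 15.9% of all genes tested had such groups. The median log2 fold change of the 7 genes was 0.36, and that of all genes tested was 0.01. Without any one Meis1-OE library, and without YFP-CTRL library A or B, the calls over the 9 genes were again 2 higher and 0 lower. Without YFP-CTRL library C they were 4 higher and 1 lower, in a fit that called 16.5% of all genes higher and 15.2% lower.

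**Figure D5:**
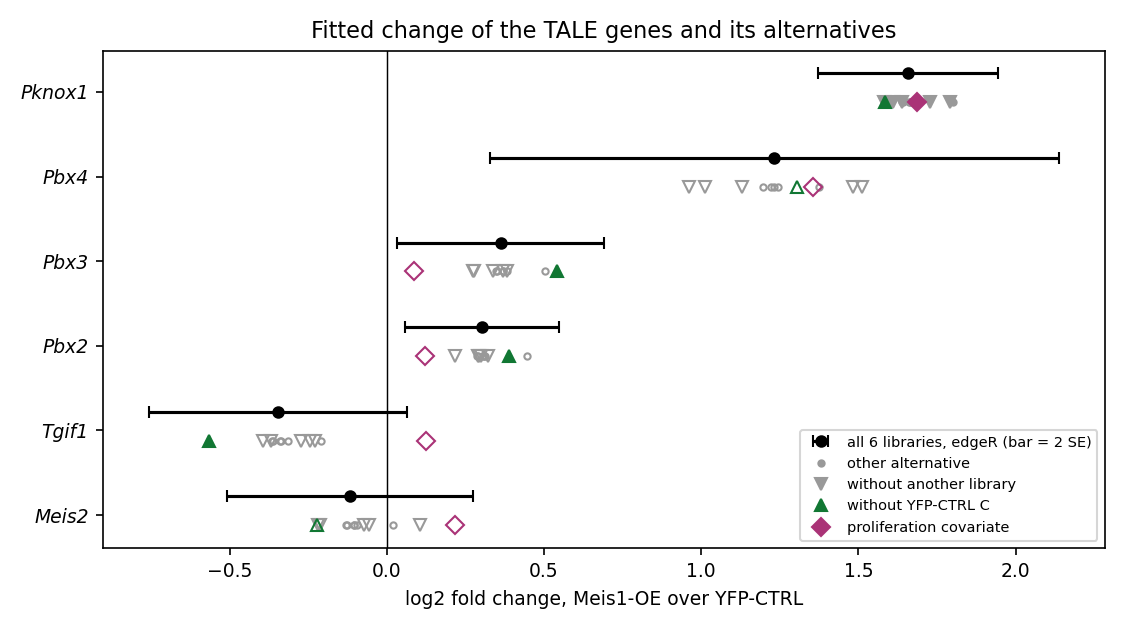
Fitted log2 fold change of 6 TALE genes, Meis1-OE over YFP-CTRL, with Meis1 left out for scale. Black points with bars of 2 SE are the fit to all 6 libraries, the symbols under them are the alternatives, and filled symbols have an adjusted p under 0.05. Pknox1 is filled throughout, and Pbx3, Pbx2 and Tgif1 are filled without YFP-CTRL library C (green triangles), with open diamonds for the proliferation covariate on the other side of the black point.

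The short site TGACAG was looked for in the promoters of these genes, since MEIS, PREP and TGIF proteins can bind it. RefSeq promoters (GRCm38.p6, 250 bases before to 50 after a start site) were found for 6 of the 9 genes, with 10 entries in all, and Pknox1, Pknox2 and Pbx3 had none. The site stood, on either strand, in 2 of the 10 entries, both of them among the 5 start sites of Tgif1, and in 19.2% of all 32851 promoters. The bases around both matches are shown because they are the only ones, with the site in capitals. They are printed on the strand of Tgif1, which is the minus strand of the genome.
Tgif1, chr17:70851180-70851225: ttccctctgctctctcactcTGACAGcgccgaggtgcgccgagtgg
Tgif1, chr17:70846728-70846759: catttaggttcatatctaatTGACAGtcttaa
The matches lie 5 and 38 bases from their start sites, and binding was not measured in these libraries.

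Of 8 further TALE homeobox genes, 3 could be tested and edgeR and DESeq2 called none, and 0 had an unadjusted p under 0.05. Tgif2, a close relative of Tgif1, averaged 8.35 CPM with forced Meis1 and 9.70 CPM in the controls (n = 3 in each). Irx5, an Iroquois gene, was at 6.72 and 8.41 CPM, and Mkx, known from tendon, at 1.38 and 1.39 CPM. Irx1, Irx2, Irx4 and Irx6 had 0 counts in every library, and Irx3 had at most 3.

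Among 20 genes for proteins that bind TALE proteins or act with them (PBX-interacting factors, acetyltransferases, deacetylases, co-repressors, Smads), all were tested, none was called higher and 1 was called lower (4.14% and 2.73% over all genes), with a median log2 fold change of -0.02. By an unadjusted p under 0.05 edgeR had 4 higher and 4 lower (12.8% and 13.4% over all genes). DESeq2 called 3 higher and 2 lower (6.18% and 6.13% over all genes). The gene called was Hdac4, which encodes a class II histone deacetylase. It was at 76.4, 66.1 and 71.7 CPM with forced Meis1 against 125, 153 and 96.4 CPM in the controls, with a log2 fold change of -0.81 (SE 0.18, adjusted p = 0.0415 by edgeR). This call was lost in 8 of 13 alternatives, among them each omission of a library other than YFP-CTRL library C. Pbxip1, whose protein binds PBX and keeps it from DNA, was at 44.0, 51.6 and 49.7 CPM with forced Meis1 against 27.8, 38.3 and 32.7 CPM in the controls. The groups did not overlap, but Pbxip1 did not pass the threshold (log2 fold change 0.55, SE 0.15, adjusted p = 0.0684 by edgeR). Smad3, also higher, was nearer to the threshold (log2 fold change 0.40, adjusted p = 0.0536 by edgeR). In this list 4 genes had groups that did not overlap with Meis1-OE higher and 8 with Meis1-OE lower (17.2% and 15.9% over all genes).

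Of 17 genes described elsewhere as Meis1 targets, 12 could be tested, 1 was higher and 2 were lower (4.14% and 2.73% over all genes), with a median log2 fold change of -0.17. Epas1, which encodes the hypoxia factor HIF-2alpha, was at 363, 446 and 469.9 CPM with forced Meis1 against 189, 231 and 289.5 CPM in the controls (log2 fold change 0.85, SE 0.18, adjusted p = 0.0389 by edgeR). Cd34, a surface marker of endothelium and blood progenitors, was at 384 to 386 CPM with forced Meis1 against 591 to 637 CPM in the controls (log2 fold change -0.68, SE 0.09, adjusted p = 0.0108 by edgeR). Cdkn2b, which encodes the cyclin-dependent kinase inhibitor p15, was at 39.6 to 43.9 CPM and 72.3 to 115 CPM (log2 fold change -1.20, SE 0.18, adjusted p = 0.0122 by edgeR). The calls of all 3 were lost when any single Meis1-OE library was left out, with their directions kept, and that of Epas1 also without YFP-CTRL library B and with the proliferation covariate. The leukemia-associated targets Flt3, Hlf, Myb, Syk and Ccl3 had too few counts to be tested.

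HOX proteins are the further partners of MEIS and PBX. Of 39 Hox genes, 20 could be tested, and 2 fell in Meis1-OE EC, with none called higher (2.73% and 4.14% over all genes). They were Hoxd9 (log2 fold change -0.86, adjusted p = 0.00969 by edgeR) and Hoxd10 (log2 fold change -1.18, adjusted p = 0.0107 by edgeR). By an unadjusted p under 0.05 edgeR had 1 Hox gene higher and 6 lower (12.8% and 13.4% over all genes). DESeq2 called 0 higher and 5 lower (6.18% and 6.13% over all genes). Both edgeR calls were lost on leaving out either Meis1-OE library B or Meis1-OE library C.

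Genes whose pattern over the 6 libraries was among the most like that of Meis1, by Pearson's r of log2(CPM + 0.5) among 9618 genes with a mean of at least 5 CPM, included Fer, Mal, Wdr44 and Csf2rb, with r of 0.996 to 0.999. Csf2rb, the common beta chain of cytokine receptors, averaged 43.7 CPM with forced Meis1 and 0.707 CPM in the controls, and Mal, a membrane proteolipid, at 80.8 and 0.719 CPM. Those most like Pknox1 were Afap1l2, Lama3, Ghr, Tctn1 and Clu, with r of 0.995 to 0.998, of which Tctn1 was not past the threshold (adjusted p = 0.0864 by edgeR). Lama3, a laminin chain, averaged 23.1 CPM with forced Meis1 and 2.47 CPM in the controls, and Clu, which encodes the chaperone clusterin, at 19.7 and 0.895 CPM. The 6 points of each correlation fall into the 2 groups, so these values describe a shared difference between groups and are given without a test.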

How the data were processed

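Ribodepleted RNA-seq of 6 libraries was used. The authors deposited estimated counts per gene, not normalised, with genes by symbol. The submitters' processing notes name the build mm10. Aligner, counter and annotation are not given in the sources used here. Labels number the replicates while columns carry letters, so columns were assigned to groups only. The study describes 3 independent replicates per condition, without saying whether they came from separate animals, so p-values measure the spread between these cultures. Counts were rounded and analysed in R 4.3.3 with edgeR 4.0.16 (filterByExpr, TMM, quasi-likelihood test, two-sided, Benjamini-Hochberg over 16065 genes, threshold 0.05), with SE derived from the F statistic, and DESeq2 1.42.0 as an alternative. Both were tested on simulated data. Intervals and the floor of 3 counts cover counting error only.

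The members and gene lists were chosen with earlier results of these data known. All 9 members were named, with list genes past the threshold, further TALE genes over 3 counts, and the 5 genes most like Meis1 and Pknox1 (Gm and Rik genes passed over). Some list genes that did not pass the threshold were also named, among them Pbxip1 and Smad3. Gene positions and promoters came from RefSeq tables of GRCm38.p6 (all 9 members matched by symbol). Exon and coding lengths, coding sequences and strands came by symbol from the GENCODE annotation of NCBIM37, whose coordinates were not used. Figures used matplotlib 3.10.9. Other genes of the family, and a gene named by the rule on likeness to Meis1, are not reported here.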

Additional observations from a re-analysis of the deposited data

How the results depend on the processing

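Over 13 alternatives, 83 of 90 fitted values of the TALE genes kept their direction and side of the threshold, 4 reversed and 3 passed the threshold. The reversals were Meis2 on library totals (log2 fold change 0.021), on adding the proliferation covariate (0.22) and on leaving out YFP-CTRL library A (0.11, within -0.22 to 0.11 over the single libraries left out), and Tgif1 with that covariate (0.13). TALE genes called ranged from 2 to 4 higher and from 0 to 1 lower when single libraries were left out, the highest values without YFP-CTRL library C. Dividing by coding length, chosen after seeing the data, kept the rank of 6 of 9 genes.

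Over all genes, 665 were higher and 438 lower. These counts were 1048 and 179 on library totals, which moved the median log2 fold change of all genes to 0.15, 1124 and 1115 by DESeq2, and 346 and 267 with the proliferation covariate. Leaving out single libraries gave 115 to 2717 higher (lowest without Meis1-OE library B, highest without YFP-CTRL library C) and 16 to 2498 lower. The causes were not tested. The column letter as a replicate block gave 544 higher and 189 lower genes and changed no call of a TALE gene. Deviations from the group means of same-letter libraries correlated at 0.262, 0.174 and 0.0844 for letters A, B and C, not all over 0.1, and Meis1-OE library C correlated best with YFP-CTRL library B (0.248), so letters were not taken as pairs. A length from a protein table was not run. Below about 3 counts per library a change in Meis3 or Pknox2 was not detectable at this depth.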
